A study of Mus musculus with 8 samples.

Results

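The forkhead genes of the mouse liver were read here as genomic targets of 2 transcription factors, the glucocorticoid receptor (GR) and FOXO1. The 8 genes were Foxo1, Foxo3 and Foxo4 of the FOXO class, Foxa1, Foxa2 and Foxa3 of the FOXA class, Foxk1 and Foxp1. A GR site was the union of overlapping peaks from any of 6 GR ChIP-seq libraries, and a site belonged to a gene when its centre lay within 50 kb of the annotated gene start. This gave 81 of 51428 GR sites, and 23 of 8394 rows of the FOXO1 list, which fell into 18 distinct regions. No site belonged to 2 of the genes. The nearest start of any protein-coding gene was that of the forkhead gene for 67 of the 81 sites and that of a neighbour for 14, of which 9 were at Foxa3.

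ChIP-seq isolates DNA bound by a protein from fixed chromatin and sequences it, and a peak is a stretch with more fragments than the surroundings. All libraries came from snap-frozen livers of adult male C57BL/6J mice on regular chow, collected at the start of the dark phase, when circulating glucocorticoids peak. The ctrl. group was night-restricted fed (2 GR libraries). The cal. res. group was kept on caloric restriction with food given at the start of the night (2 GR libraries and 2 FOXO1 libraries, the latter merged by the authors into 1 list). The CORT group was night-restricted fed and given daily intraperitoneal corticosterone (2 GR libraries). The labels do not give the degree of restriction, and the study's text describes 2 degrees, of which the stricter was used after the first tests. Whether the ctrl. mice of these libraries received vehicle is not given. The study's methods call the 2 libraries of a group biological replicates, and the labels do not name the animals. Whole liver was used, and the cell type behind a peak is unknown.

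The lists differed in length from 13667 rows in ctrl. 2 to 48060 in CORT 2, and ctrl. 1 held 41400. Read numbers per library are not given in the sources used here. ctrl. 1 and both CORT libraries carry one style of library name, ctrl. 2 and both cal. res. libraries another, so library naming cannot be fully told apart from the groups. Between cal. res. and CORT it cannot be told apart at all. A site counted as held by a group if each of the 2 libraries of that group listed a peak in it. Strength was compared as the within-list percentile, the rank of a region's fold enrichment over local background among all distinct regions of the same library. Both measures move with list length, and each was repeated with the 12458 regions of smallest p-value from every library, called equal regions below.

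Forkhead factors share a winged-helix domain that binds the core TGTTTAC and related sequences. FOXA1, FOXA2 and FOXA3 are pioneer factors that open chromatin in hepatocytes and are needed for liver development. FOXO1, FOXO3 and FOXO4 are held in the cytoplasm by insulin signalling through AKT, and in the fasted liver they enter the nucleus and act on gluconeogenic, autophagy and stress-resistance genes. FOXK1 represses autophagy genes in nutrient-rich cells, and FOXP1 is a repressor known to oppose FOXO1 at gluconeogenic genes.

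Sequences at GR sites that overlapped FOXO1 are shown first, chosen by GR rank in cal. res. and not by FOXO1 rank. For 5 genes with a GR site that was held by cal. res. and overlapped FOXO1, the 200 bp around the GR summit of the higher-ranked cal. res. library are printed for the site with the highest mean cal. res. percentile (mm10, plus strand). They are chr3:52290984-52291183 in a Foxo1 intron, chr10:42251348-42251547 in a Foxo3 intron, chr2:148046996-148047195 directly upstream of Foxa2, chr7:19010621-19010820 in intergenic sequence past the 3′ end of Foxa3 and chr6:99522747-99522946 directly upstream of Foxp1, inside an intron of Gm20696. None overlapped an exon, and the Foxa3 window lies in a site whose nearest gene start is that of Irf2bp1. Capitals mark TGTTTAC, or GTAAACA where the match is on the minus strand, and the STAT-type palindrome TTCNNNGAA.
Foxo1 intron: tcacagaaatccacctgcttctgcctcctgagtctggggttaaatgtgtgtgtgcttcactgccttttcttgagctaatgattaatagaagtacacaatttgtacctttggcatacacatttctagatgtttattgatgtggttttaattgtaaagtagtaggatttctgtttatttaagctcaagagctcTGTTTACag
Foxo3 intron: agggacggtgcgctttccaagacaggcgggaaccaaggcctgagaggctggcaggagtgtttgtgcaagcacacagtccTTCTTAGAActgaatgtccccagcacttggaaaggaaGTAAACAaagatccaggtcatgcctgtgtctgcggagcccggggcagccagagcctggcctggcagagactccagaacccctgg
Foxa2 upstream: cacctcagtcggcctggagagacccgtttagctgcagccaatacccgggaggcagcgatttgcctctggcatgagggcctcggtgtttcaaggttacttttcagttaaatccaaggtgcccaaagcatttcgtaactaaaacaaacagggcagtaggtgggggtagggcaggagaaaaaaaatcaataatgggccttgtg
Foxa3 downstream: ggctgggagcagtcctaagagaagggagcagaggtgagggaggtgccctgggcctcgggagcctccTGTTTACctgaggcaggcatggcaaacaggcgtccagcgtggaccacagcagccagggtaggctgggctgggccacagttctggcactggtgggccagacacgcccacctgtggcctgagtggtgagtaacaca
Foxp1 upstream: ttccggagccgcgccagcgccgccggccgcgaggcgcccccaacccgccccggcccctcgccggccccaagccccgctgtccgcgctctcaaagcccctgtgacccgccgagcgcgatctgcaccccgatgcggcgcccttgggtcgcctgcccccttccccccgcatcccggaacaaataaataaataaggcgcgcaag

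The Foxo1, Foxo3 and Foxa3 windows each held the forkhead core once, and the Foxo3 window also held TTCTTAGAA. The windows at Foxa2 and Foxp1 held none of the 4 motifs searched. The FOXO1 summit nearest to the window centre lay at -14 bp in the Foxo3 window and at -43 bp at Foxa3, where negative means a lower coordinate. It lay at -246 bp for Foxo1, -239 bp for Foxa2 and 102 bp for Foxp1. At 2 of these 5 sites the GR and FOXO1 summits were thus less than 50 bp apart.

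A full-length glucocorticoid response element (GRE), written as ACANNNTGT with a G 2 bases before it and a C 2 bases after it, was present around the summit of 2 of the 81 sites, and both are shown because they are the only such matches within the 200 bp windows searched. The match and 30 bp on either side are printed for chr10:42231121-42231193 in a Foxo3 intron and chr7:19013074-19013146 beyond the 3′ end of Foxa3 (mm10, plus strand), with the GRE in capitals.
Foxo3 GRE: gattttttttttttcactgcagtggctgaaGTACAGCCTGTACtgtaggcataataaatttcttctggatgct
Foxa3 GRE: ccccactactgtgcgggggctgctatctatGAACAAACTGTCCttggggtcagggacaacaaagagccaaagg

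Both GREs lay at sites with a peak in all 6 libraries, and these are described with their genes below. The Foxa3 match began at -5 bp from the summit and the Foxo3 match at 84 bp. The site of the Foxa3 match is nearer to the start of Irf2bp1 than to that of Foxa3.

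**Figure D1:**
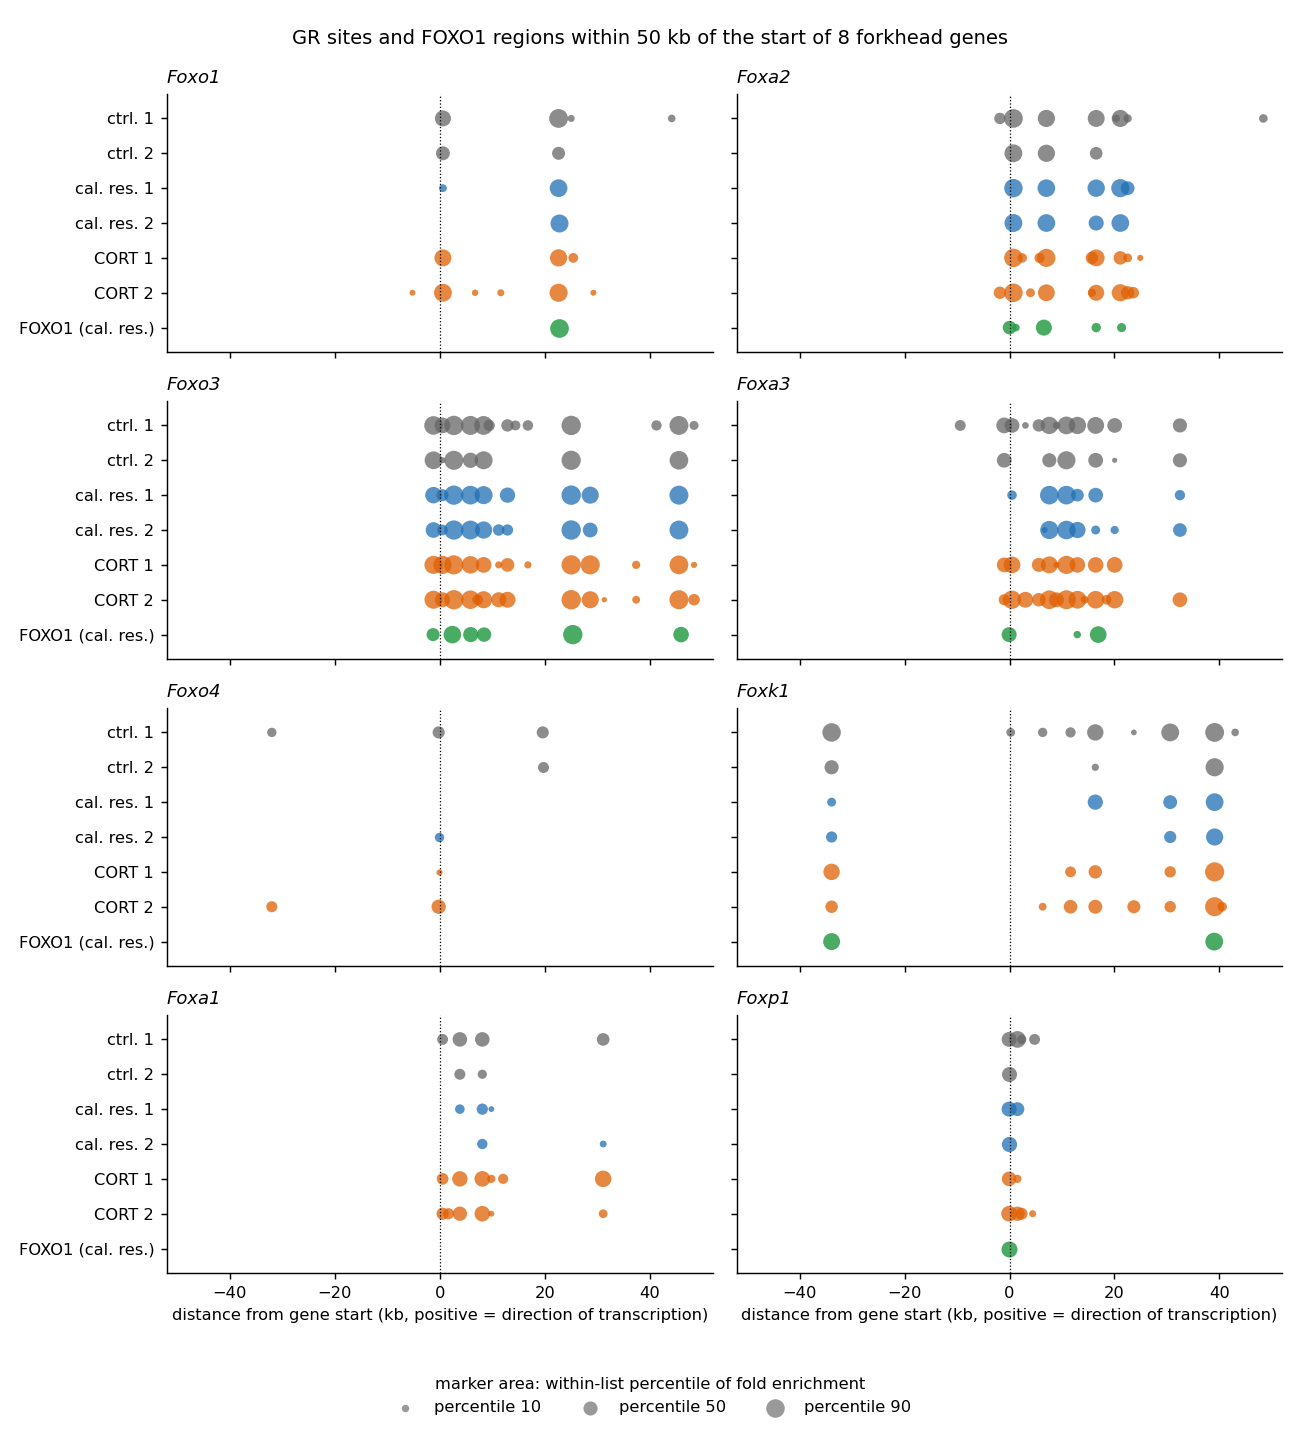
GR peaks in each of the 6 libraries and FOXO1 regions by distance from the start of each forkhead gene (kb, positive in the direction of transcription), with marker area following the within-list percentile of fold enrichment (0 to 100). The 18 sites of Foxo3 and their row of 6 FOXO1 regions stand beside the 3 sites of Foxo4, where no FOXO1 region was listed.

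GR sites were spread unevenly over the 8 loci. Foxo3 had 18 sites, Foxa3 15, Foxa2 14, Foxk1 10, Foxo1 9, Foxa1 7, Foxp1 5 and Foxo4 3. The median protein-coding gene had 3, and 2.20% of 21911 genes had as many as Foxo3 or more. For Foxa3 that share was 4.75%, for Foxa2 6.13%, and for Foxo4 51.9%. The sites lay mostly on the transcribed side of the start. Of the 81, 72 (88.9%) were centred downstream, against 52.5% of the sites around all protein-coding genes. Summits fell in introns at 51 sites, in exons at 11 and between genes at 19.

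Of the 81 sites, ctrl. held 25, cal. res. 24 and CORT 42. These were 30.9%, 29.6% and 51.9% of the forkhead sites, beside 21.4%, 27.9% and 43.7% of all sites. All 3 groups held 18 sites (22.2%, against 15.7% of all sites), and each of these had a peak in all 6 libraries. The single libraries had peaks at 57 sites (ctrl. 1), 25 (ctrl. 2), 31 (cal. res. 1), 29 (cal. res. 2), 48 (CORT 1) and 62 (CORT 2). The order follows the lengths of the lists, and every forkhead site with a peak in ctrl. 2 also had one in ctrl. 1. With equal regions, 34 forkhead sites remained in view, of which ctrl. held 16, cal. res. 16 and CORT 18 (47.1%, 47.1% and 52.9%, against 36.0%, 42.6% and 42.2% of all sites so defined). The counts of the 3 groups were thus much closer to each other with equal regions than with the full lists.

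**Figure D2:**
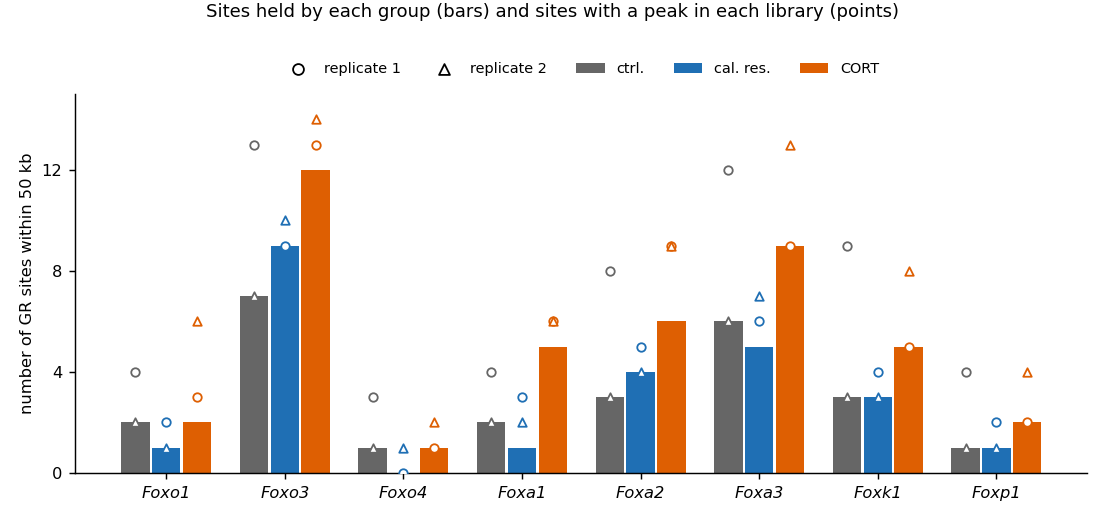
Number of GR sites within 50 kb of each gene start (vertical axis) that each group held through both libraries (bars: ctrl. grey, cal. res. blue, CORT orange), with the number of sites that had a peak in each library as open points (circle replicate 1, triangle replicate 2). CORT held 12 of the 18 Foxo3 sites and 9 of the 15 Foxa3 sites, and cal. res. held none at Foxo4.

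Foxo3, whose product is known for its part in stress resistance and autophagy, carried the densest set of GR sites. ctrl. held 7, cal. res. 9 and CORT 12 of its 18 sites, and 7 were held by all 3 groups. For ctrl., 1.19% of protein-coding genes had as many held sites or more, and the share was 0.634% for cal. res. and 0.644% for CORT. With equal regions the counts were 6, 7 and 7 of 9 sites. The gene lies on the minus strand of chr10:42181841-42276755, and its first 50 kb are mostly a long intron, which held most of the sites.

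The strongest Foxo3 site lay 25.04 kb inside the gene, at chr10:42251105-42252334. Its percentile was 99.4 and 97.6 (ctrl.), 99.5 and 99.4 (cal. res.) and 98.7 and 99.3 (CORT). The fold enrichment there was 39.1 and 14.3 (ctrl.), 63.0 and 47.0 (cal. res.) and 37.1 and 53.6 (CORT). It was near the top of every list, and it also ranked at 99.3 in the FOXO1 list with a fold enrichment of 26.2. Both cal. res. percentiles were above all 4 others, with the full lists and with equal regions. With the full lists cal. res. 2 (99.42) was almost tied with ctrl. 1 (99.39). With equal regions the cal. res. percentiles stood at 99.2 and 99.1, against 98.2 and 97.6 (ctrl.) and 97.0 and 97.8 (CORT).

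A second Foxo3 site of that height lay 2.68 kb inside the gene (chr10:42273261-42274890). Its percentiles were 99.5 and 95.9 (ctrl.), 98.0 and 97.8 (cal. res.) and 97.0 and 98.9 (CORT). The groups overlapped. The site with the GRE, 45.6 kb inside the gene (chr10:42230200-42232182), stood at 94.6 and 91.7 (ctrl.), 95.1 and 94.3 (cal. res.) and 93.3 and 95.7 (CORT), again with overlap. FOXO1 ranked at 81.1 at the former and 62.2 at the latter.

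Further shared Foxo3 sites differed more between libraries. At 8.35 kb (chr10:42268065-42268744) the percentiles were 93.6 and 84.8 (ctrl.), 85.3 and 77.3 (cal. res.) and 63.8 and 76.4 (CORT). Both CORT libraries were lowest there, and with equal regions they stood at 14.4 and 25.9, against 81.3 and 84.8 (ctrl.) and 73.3 and 65.9 (cal. res.). At 5.85 kb (chr10:42270445-42271373) they were 95.6 and 59.9 (ctrl.), 92.8 and 94.1 (cal. res.) and 80.3 and 90.4 (CORT). The pair of ctrl. libraries enclosed those of the other groups there, whereas cal. res. lay above CORT without overlap.

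Directly upstream of Foxo3, at -1.20 kb (chr10:42277339-42278568), the percentiles were 90.6 and 82.4 (ctrl.), 70.4 and 63.0 (cal. res.) and 86.1 and 85.4 (CORT). The cal. res. libraries were the lowest there, also with equal regions, where they stood at 46.0 and 44.4, against 72.6 and 82.4 (ctrl.) and 67.1 and 54.2 (CORT). At the site across the first exon (chr10:42275241-42277240, summit in the annotated UTR) they were 63.3 and 5.21 (ctrl.), 34.9 and 26.1 (cal. res.) and 87.3 and 57.3 (CORT). The 2 ctrl. libraries were far apart, and both CORT libraries were above both cal. res. libraries.

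The remaining Foxo3 sites were held only outside ctrl. At 28.7 kb (chr10:42247431-42248758) no ctrl. library had a peak, whereas cal. res. stood at 76.2 and 55.8 and CORT at 96.9 and 76.0. It was the only one of the 81 sites held by cal. res. with no peak in either ctrl. library. At 12.9 kb ctrl. 1 had a peak at 37.5, cal. res. at 59.9 and 30.0, and CORT at 46.6 and 66.0. CORT alone held the sites at 48.4, 37.4 and 11.2 kb, with percentiles from 5.16 to 57.7 in its 2 libraries.

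Foxo1 encodes the FOXO factor profiled in the FOXO1 list and known as an insulin-restrained activator of gluconeogenic genes. It lies on the plus strand at chr3:52268336-52353221. ctrl. held 2 of its 9 sites, cal. res. 1 and CORT 2. The site across the start and first intron (chr3:52267465-52270405, centre at 0.599 kb) had percentiles of 66.2 and 48.7 (ctrl.), 11.9 in cal. res. 1 with no peak in cal. res. 2, and 75.1 and 83.5 (CORT). It was above cal. res. 1 in all 4 ctrl. and CORT libraries, and with equal regions CORT alone held it. The second site lay 22.6 kb inside the gene (chr3:52290506-52291434), in an intron. Its percentiles were 93.4 and 41.8 (ctrl.), 81.9 and 85.1 (cal. res.) and 77.6 and 86.3 (CORT), so that the ctrl. pair spanned all others. The FOXO1 region on it ranked at 92.2, with a fold enrichment of 12.3. FOXO1 was thus listed on an intron of its own gene in cal. res. livers, and no region was listed at its start.

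Foxo4, the X-linked FOXO gene (chrX:101254528-101260873), was nearly without signal. Its 3 sites included one across the start (chrX:101254061-101254562), held by CORT alone with percentiles of 5.16 and 51.8, beside 35.6 in ctrl. 1 and 19.3 in cal. res. 2. A second, in an exon of Med12, stood at 35.6 and 28.5 (ctrl.) and had no peak elsewhere. It was the only one of the 81 sites held by ctrl. alone. No FOXO1 region was listed within 50 kb, and with equal regions no group held a Foxo4 site.

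Foxa2, which controls bile acid and lipid genes in the adult liver, had the strongest GR signal of the FOXA class at its start. ctrl. held 3, cal. res. 4 and CORT 6 of its 14 sites (minus strand, gene at chr2:148042877-148046969). The site across the start (chr2:148045113-148047335) had percentiles of 92.5 and 83.4 (ctrl.), 89.3 and 83.7 (cal. res.) and 90.1 and 90.6 (CORT). The cal. res. libraries lay within the range of ctrl. and just below CORT. At 7.02 kb, past the end of the gene (chr2:148039042-148040859), they were 77.0 and 77.7 (ctrl.), 81.1 and 82.0 (cal. res.) and 86.5 and 73.6 (CORT). The cal. res. libraries were above those of ctrl. by a few percentiles, but with equal regions they stood at 65.5 and 72.9 between the ctrl. values of 33.1 and 77.7.

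Other Foxa2 sites lay further downstream in introns of 9030622O22Rik. At 16.5 kb the percentiles were 74.7 and 39.4 (ctrl.), 78.9 and 57.9 (cal. res.) and 73.8 and 66.3 (CORT). At 21.1 kb (chr2:148025350-148026367) ctrl. 1 stood at 76.5, cal. res. at 87.0 and 82.2, and CORT at 45.2 and 77.2, with no peak in ctrl. 2. That site was the only one at Foxa2 held by cal. res. and not by ctrl., through the absence of a peak in ctrl. 2. CORT alone held the sites at 22.5 and 15.7 kb, with percentiles from 13.4 to 44.2.

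Foxa3, the FOXA member that persists most strongly in mature hepatocytes, lies on the minus strand at chr7:19013284-19023538. ctrl. held 6, cal. res. 5 and CORT 9 of its 15 sites. The site with the GRE (chr7:19011461-19013941, 10.8 kb from the start and beyond the 3′ end) had percentiles of 82.7 and 86.3 (ctrl.), 91.5 and 91.1 (cal. res.) and 87.2 and 95.0 (CORT). The nearest start to this site is that of Irf2bp1, at 8.66 kb. Both other groups were above ctrl. with the full lists. With equal regions ctrl. stood at 49.5 and 86.3, cal. res. at 84.6 and 86.6 and CORT at 69.8 and 84.3, and all groups overlapped ctrl.

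In the Foxa3 intron at 7.58 kb (chr7:19015352-19016558) the percentiles were 78.4 and 50.7 (ctrl.), 91.2 and 87.0 (cal. res.) and 75.2 and 91.6 (CORT). Both cal. res. libraries were above both ctrl. libraries, and with equal regions they stood at 84.0 and 80.4, above all of 37.3 and 50.7 (ctrl.) and 41.3 and 73.6 (CORT). At 16.4 kb (chr7:19005788-19008458) the order was the opposite, with 74.3 and 55.9 (ctrl.), 54.8 and 17.1 (cal. res.) and 62.1 and 81.4 (CORT). The latter site lies 3.08 kb from the start of Irf2bp1.

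Across the Foxa3 start (chr7:19022207-19023918), CORT alone held the site with 72.6 and 87.9, beside 55.5 in ctrl. 1 and 20.1 in cal. res. 1. At 12.9 kb (chr7:19010019-19011180) ctrl. 1 stood at 77.7, cal. res. at 39.7 and 68.5 and CORT at 61.9 and 83.2. The nearest start to that site is that of Irf2bp1, at 6.56 kb. Further sites were held by ctrl. and CORT at 20.0 and -1.01 kb, and by ctrl. and cal. res. at 32.5 kb. At 20.0 kb (chr7:19002396-19004612) the percentiles were 55.3 and 2.01 (ctrl.), 13.5 in cal. res. 2, and 63.6 and 79.0 (CORT). At -1.01 kb they were 63.5 and 55.0 (ctrl.) and 55.8 and 28.9 (CORT), with no peak in cal. res. At 32.5 kb they were 50.5 in both ctrl. libraries, 24.6 and 46.9 (cal. res.) and 54.9 in CORT 2. These 3 sites are nearest to the starts of Irf2bp1, Sympk and Mypop. CORT alone also held 8.97 kb, at 5.16 and 55.8, and 5.59 kb, at 49.5 and 45.6.

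Foxa1, which is partly redundant with Foxa2 in liver development, had weaker sites and no FOXO1 region (minus strand, chr12:57540628-57546916). ctrl. held 2, cal. res. 1 and CORT 5 of its 7 sites. The only site held by all groups lay 8.10 kb from the start, past the 3′ end (chr12:57537719-57539910), with percentiles of 53.8 and 18.5 (ctrl.), 30.1 and 24.7 (cal. res.) and 63.1 and 62.2 (CORT). Both CORT libraries were above the other 4. In the Foxa1 exon at 3.83 kb (chr12:57542168-57544014) they were 53.8 and 28.5 (ctrl.), 20.3 in cal. res. 1 with no peak in cal. res. 2, and 60.7 and 51.8 (CORT). CORT alone held the sites at 31.1 kb (70.6 and 16.0), 9.82 kb (13.5 and 4.46) and 0.541 kb (33.0 and 36.2). With equal regions no group held a Foxa1 site, so that all of these lay outside the 12458 regions in at least 1 library of each group.

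Foxk1 had 10 sites, of which ctrl. held 3, cal. res. 3 and CORT 5 (plus strand, chr5:142401497-142462011). At 39.1 kb, in a Foxk1 intron but nearest to the start of Ap5z1 (23.4 kb), the percentiles were 93.8 and 86.7 (ctrl.), 82.5 and 76.6 (cal. res.) and 97.2 and 96.3 (CORT). The 3 groups were separated there, with CORT highest and cal. res. lowest, and equal regions gave the same order, with 93.3 and 88.5 for CORT, 81.8 and 86.7 for ctrl. and 68.2 and 64.8 for cal. res. At -33.9 kb (chr5:142367153-142368048) they were 89.7 and 50.7 (ctrl.), 16.7 and 29.8 (cal. res.) and 69.8 and 37.9 (CORT), so that cal. res. was again lowest. Both sites overlapped FOXO1, at percentiles of 83.1 and 74.7.

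The other held Foxk1 sites were intronic. At 16.3 kb the percentiles were 69.3 and 9.11 (ctrl.), 59.4 in cal. res. 1 and 44.8 and 48.8 (CORT). At 30.6 kb they were 83.2 in ctrl. 1, 48.1 and 36.0 (cal. res.) and 30.6 and 31.3 (CORT). CORT alone held 11.6 kb, at 27.2 and 46.3. The start itself had a peak only in ctrl. 1.

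Foxp1 had 5 sites, all within 5 kb of its start (minus strand, chr6:98925338-99522721). The site across the start (chr6:99521722-99523884) was among the most even of the set, with 56.2 and 57.5 (ctrl.), 57.8 and 59.3 (cal. res.) and 53.4 and 63.1 (CORT). FOXO1 ranked at 66.3 on it. CORT alone held the site at 1.503 kb (chr6:99520954-99521483), at 13.5 and 51.8, although ctrl. 1 had it at 72.3 and cal. res. 1 at 48.1. Foxp1 is a long gene with several annotated transcript starts. With 50 kb around each of these counted, Foxp1 had 21 sites, of which ctrl. held 3, cal. res. 9 and CORT 11, and 5 overlapped FOXO1.

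Of the 81 sites, 37 were held by no group. They numbered 8 at Foxa2, 7 at Foxo1, 6 at Foxo3, 5 each at Foxa3 and Foxk1, 3 at Foxp1, 2 at Foxa1 and 1 at Foxo4. Of these, 30 had a peak in 1 library and 7 in 2, and their 44 percentiles ran from 2.52 to 64.8 with a median of 19.1. They came chiefly from the longest lists, with 19 in CORT 2 and 18 in ctrl. 1.

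All 8 forkhead genes had a GR site centred within 1 kb of the start, as did 45.7% of protein-coding genes. CORT held 7 of these 8 start sites, ctrl. 4 and cal. res. 3, where 32.3%, 20.9% and 17.5% of all genes had a start site held by that group. cal. res. held those of Foxo3, Foxa2 and Foxp1, ctrl. also that of Foxo1, and CORT every one except Foxk1. These counts moved with the length of the lists. ctrl. 1 alone had a peak at all 8 starts, so that without ctrl. 2 the ctrl. count was 8 (40.2% of all genes). With equal regions CORT held 3 (Foxo1, Foxa2 and Foxa3, against 13.7% of genes), cal. res. 2 (Foxa2 and Foxp1, against 7.65%) and ctrl. 1 (Foxa2, against 12.01%). The FOXO1 list overlapped the start sites of Foxa2, Foxa3 and Foxp1, against 6.30% of genes.

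The first comparison asked which sites differ between cal. res. and ctrl. livers. Of the 81 sites, 5 were held by cal. res. and not by ctrl. (6.17%, against 11.5% of all sites), and 4 of the 5 had a peak in ctrl. 1. In the other direction 6 sites were held by ctrl. and not by cal. res. (7.41%, against 4.99% of all sites), at the Foxo1 start, Foxo4, Foxa1, Foxa3 at 20.0 and -1.01 kb, and Foxk1. No forkhead site was held by cal. res. alone, against 2.39% of all sites. Among the 18 sites with a peak in all 6 libraries, both cal. res. percentiles were above both ctrl. percentiles at 5, where 11.5% of the 8095 such sites were called by that rule, and below both at 4, against 20.6%. The 5 were the Foxo3 site at 25.04 kb, Foxa2 at 7.02 kb, Foxa3 at 10.8 and 7.58 kb, and Foxp1. With equal regions, 12 forkhead sites had a peak in all 6 libraries, and cal. res. was above ctrl. at 2 (22.3% of 4837) and below at 3 (20.1%). The 2 were Foxo3 at 25.04 kb and Foxa3 at 7.58 kb.

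A limma fit of the normal scores of these percentiles, over all 8095 sites, called none in cal. res. against ctrl. at an adjusted p of 0.05 (0.0%), and 550 had an unadjusted p below that level. None of the 18 forkhead sites was called, and 1 had an unadjusted p below 0.05. That was Foxk1 at -33.9 kb, with a difference of -1.39 ± 0.546 (SE) in normal score and an adjusted p of 0.677 (limma). At Foxo3 25.04 kb the difference was 0.32 ± 0.433 (adjusted p = 0.966), and at Foxa3 7.58 kb it was 0.84 ± 0.479 (adjusted p = 0.802). An exact permutation test of 2 against 2 libraries cannot give a p below 0.333, so single sites cannot be called that way. In simulated data of this size for the same comparison, 84.5% of sites shifted by 4 normal-score units were recovered and 0% of those shifted by 2. There 200 sites were shifted, and the spread of each site was drawn at random from those observed. The recovered shares hold for that setting only. The median difference over the 18 forkhead sites was 0.08 in cal. res. against ctrl., 0.11 in CORT against ctrl. and -0.03 in cal. res. against CORT. Over all 8095 sites it was -0.04, 0.32 and -0.33. With the library-name style as a covariate it was 0.31, -0.09 and 0.42 over all sites, and 0.25, -0.09 and 0.34 over the forkhead sites. With that covariate, cal. res. is compared with ctrl. 2 alone and CORT with ctrl. 1 alone, since these share a name style. At Foxo3 25.04 kb the differences were 0.59 and -0.17, the same as without ctrl. 1 and without ctrl. 2, respectively. At each site, cal. res. against CORT is then the gap between those differences, and it includes the gap between the ctrl. libraries. The fit therefore cannot show what naming alone does. The forkhead medians were 0.21, -0.26 and 0.38 with equal regions (12 sites) and 0.15, -0.16 and 0.29 with quantile-normalized log2 fold enrichment (18 sites). The sign of the last 2 contrasts thus turned with the name covariate, equal regions and quantile normalization. Without ctrl. 2 the first 2 forkhead medians turned, to -0.43 and -0.13 (22 sites), beside -0.46 and -0.11 over all sites. For CORT against ctrl., this turn and that with the name covariate are the same dependence, since both use ctrl. 1 alone. No sign of a forkhead median turned with p-value percentiles, the replicate block or any 1 other library left out.

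The second comparison asked what corticosterone without food restriction does. CORT held 19 sites that ctrl. did not (23.5%, against 24.3% of all sites), 5 at Foxo3, 4 at Foxa3, 3 each at Foxa1 and Foxa2, 2 at Foxk1 and 1 each at Foxo4 and Foxp1. At 14 of the 19, ctrl. 1 had a peak and the missing peak was that of ctrl. 2, whose list was the shortest. Both CORT percentiles were above both ctrl. percentiles at 3 of the 18 sites (Foxa1 at 8.10 kb, Foxk1 at 39.1 kb and Foxa3 at 10.8 kb), against 26.6% of all sites, and below at 1 (Foxo3 at 8.35 kb), against 5.2%. With equal regions the counts were 1 of 12 above (Foxk1, against 18.4%) and 3 of 12 below (Foxo3 at 8.35 and -1.20 kb and the Foxa2 start, against 20.0%). limma called none of 8095 (0.0%, 511 at an unadjusted p below 0.05) and none of the 18. The largest difference was at the Foxo3 first exon, 1.30 ± 0.653 with adjusted p = 0.777, and it passed the threshold only without ctrl. 1 (2.29 ± 0.478, adjusted p = 0.0253).

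The third comparison set cal. res. against CORT, which differ in food restriction, daily injection and length of treatment. The libraries of the 2 groups also carry different styles of name throughout. These differences cannot be told apart here. CORT held 19 sites that cal. res. did not (23.5%, against 18.8% of all sites). The only site held by cal. res. and not by CORT was Foxa3 at 32.5 kb (1.23%, against 3.04%). Both cal. res. percentiles were above both CORT percentiles at 3 of the 18 sites, all within Foxo3 (25.04, 8.35 and 5.85 kb), against 9.01% of all sites. The reverse held at 7 of 18, against 45.9%, and these were Foxo3 at 0.514 and -1.20 kb, Foxa1 at 8.10 kb, the Foxa2 start, both shared Foxk1 sites and Foxa3 at 16.4 kb. With equal regions the balance turned. cal. res. was above CORT at 7 of 12 sites, against 31.3%, namely Foxo3 at 45.6, 25.04, 8.35 and 5.85 kb, Foxo1 at 22.6 kb and Foxa3 at 10.8 and 7.58 kb. It was below at 2 of 12, Foxo3 at -1.20 kb and Foxk1 at 39.1 kb, against 24.6%. The 3 Foxo3 intron sites that led with the full lists also led with equal regions, where the one at 5.85 kb stood at 86.8 and 91.1 (cal. res.) and 53.4 and 69.7 (CORT). limma called none of 8095 (0.0%, 1183 at an unadjusted p below 0.05). Foxk1 at 39.1 kb had the smallest p among the forkhead sites, with a difference of -1.02 ± 0.427 and adjusted p = 0.317.

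**Figure D3:**
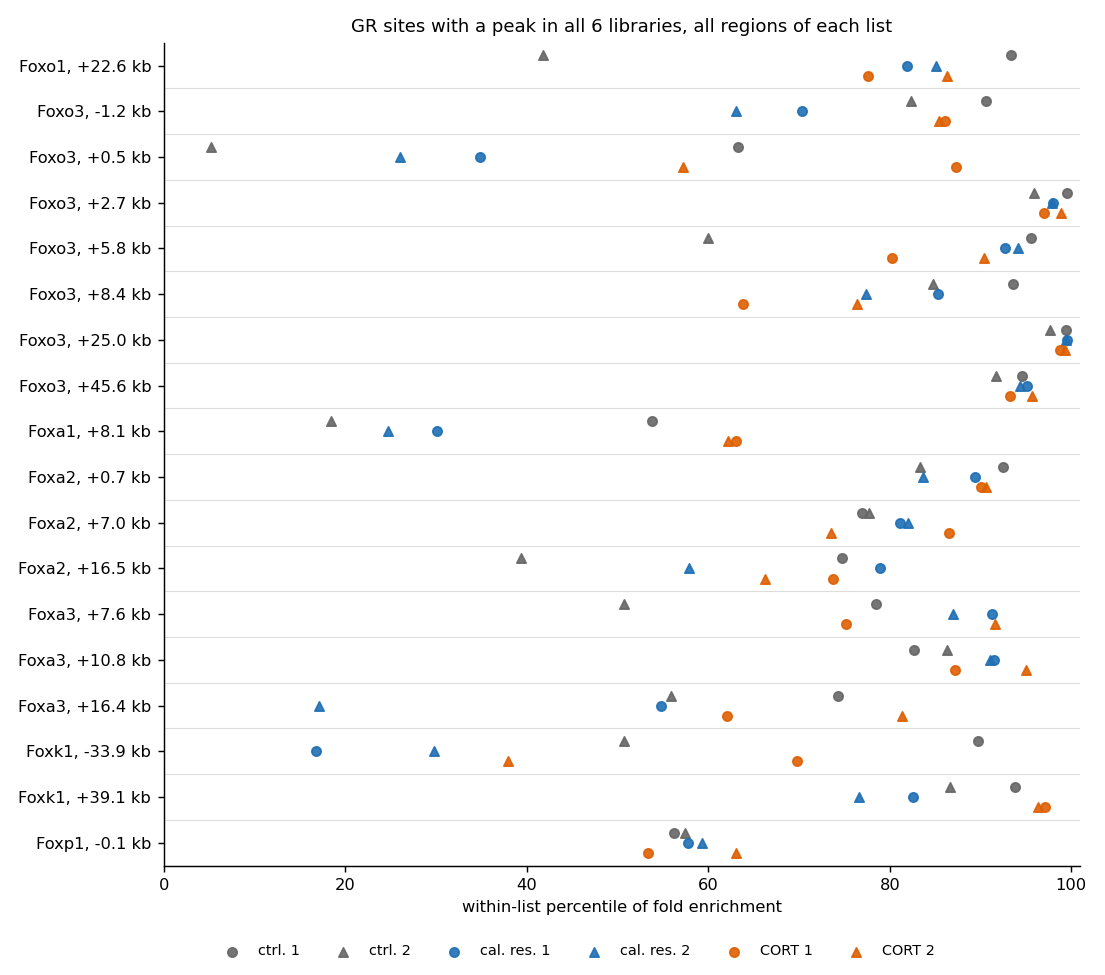
Within-list percentile of fold enrichment (horizontal axis, 0 to 100) in each of the 6 GR libraries at the 18 forkhead sites with a peak in all of them, by gene and distance from its start (ctrl. grey, cal. res. blue, CORT orange; circle replicate 1, triangle replicate 2). The Foxo3 site at 25.04 kb lies at 97.6 or above in every library, and at Foxo1 22.6 kb ctrl. 1 (93.4) and ctrl. 2 (41.8) enclose all the rest.

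**Figure D4:**
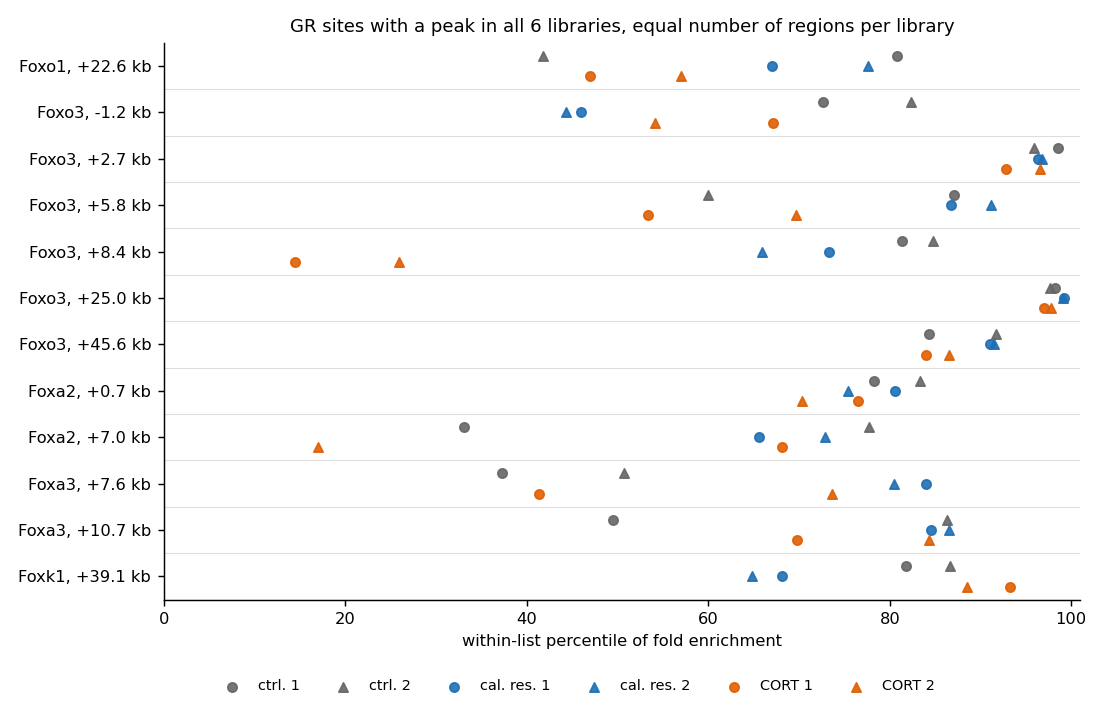
The same percentiles (horizontal axis, 0 to 100) computed from 12458 regions per library, at the 12 forkhead sites with a peak in all 6 libraries under that limit, with the same colours and symbols. At Foxo3 8.35 kb both CORT libraries lie far to the left (14.4 and 25.9), and at Foxk1 39.1 kb both lie to the right of all others (93.3 and 88.5).

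The FOXO1 list of cal. res. livers had 18 regions near these genes. All 18 lay on a GR site, as did 93.7% of the 8053 FOXO1 regions on the same chromosomes, and 17 of the 81 sites (21.0%, against 13.9% of all sites) overlapped one. FOXO1 was listed at Foxo3 (6 regions), Foxa2 (5), Foxa3 (3), Foxk1 (2), Foxo1 (1) and Foxp1 (1), and 0.940% of protein-coding genes had as many regions as Foxo3 and 1.97% as many as Foxa2. Of the 17 sites, cal. res. held 16 (94.1%, against 80.1% of all FOXO1-overlapping sites), ctrl. 14 (82.4%, against 62.4%) and CORT 17 (100%, against 86.1%). FOXO1 overlapped 16 of the 24 cal. res.-held sites (66.7%), against 39.8% of all such sites. Of the 18 held by all groups, 14 (77.8%) did, against 50.7%. Forkhead sites held by cal. res. had a median length of 1279 bp, against 929 bp for all such sites. Overlap required only 1 bp, and whether length accounts for the higher shares was not tested. The FOXO1 list is a single merged one from cal. res. livers, with no replicate spread and no list from the other groups.

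In every GR library the forkhead sites with FOXO1 had a higher median percentile than those without. In ctrl. the medians were 90.6 (17 sites) and 27.9 (40) for replicate 1 and 80.0 (14) and 28.5 (11) for replicate 2. In cal. res. they were 81.9 (17) and 47.8 (14), and 79.7 (16) and 30.0 (13). In CORT they were 77.6 (17) and 30.6 (31), and 85.4 (17) and 34.2 (45). The same order held over all sites, with medians of 69.7 to 84.6 with FOXO1 and 39.1 to 43.4 without.

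**Figure D5:**
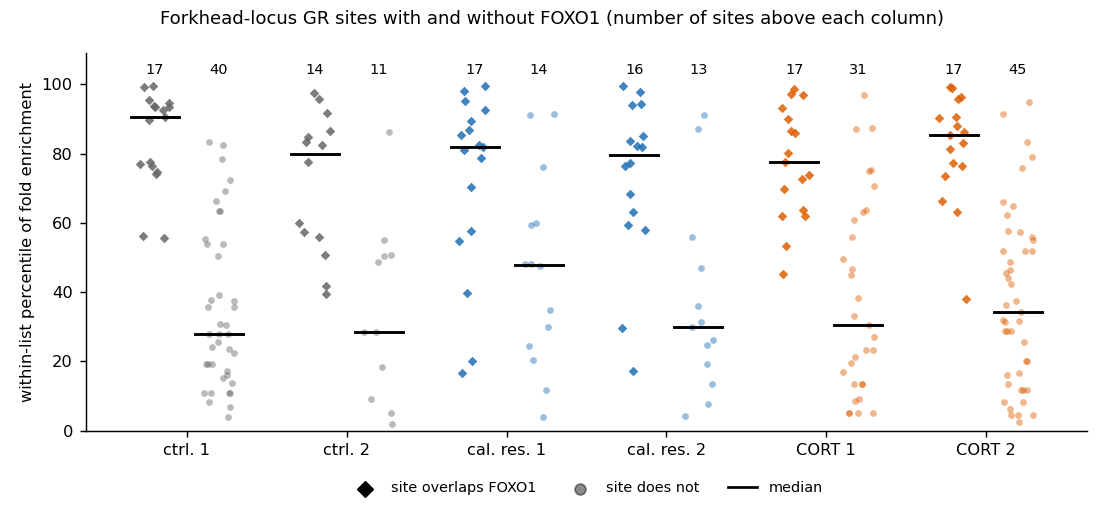
Within-list percentile of fold enrichment (vertical axis, 0 to 100) of the forkhead sites in each GR library, split into sites that overlap a FOXO1 region (diamonds) and sites that do not (circles), with medians as bars and the number of sites above each column. The median with FOXO1 is between 77.6 and 90.6 and that without between 27.9 and 47.8.

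The FOXO1 regions themselves ranged widely in rank. Foxo3 at 25.04 kb (99.3) and Foxo1 at 22.6 kb (92.2) were highest, followed by Foxk1 at 39.1 kb (83.1) and Foxo3 at 2.68 kb (81.1). Those at Foxa2 were lower, at 66.3, 46.4, 19.4, 17.8 and 10.6, and at Foxa3 they were 72.3, 57.1 and 9.95. The one region on a GR site not held by cal. res. was that at the Foxa3 start. Within the stronger 50% of FOXO1 regions, 12 of the 81 sites still overlapped one.

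Motifs were counted in 200 bp around the summit of the highest-ranked peak of each site, on both strands. The forkhead core TGTTTAC was found in 6 of 81 windows (7.41%, against 5.19% of all sites), at Foxo1 22.6 kb, Foxo3 25.04 kb, the Foxo4 start, Foxa3 12.9 kb and 2 sites held by no group. Of the 17 windows on FOXO1 sites, 3 held it (17.6%), beside 13.9% of all FOXO1-overlapping sites. The GRE was found in 2 (2.47%, against 1.89%), TTCNNNGAA in 8 (9.88%, against 8.16%) and the hexamer AGAACA, which can overlap a GRE, in 5 (6.17%, against 18.4%). Of the 5 windows with AGAACA, 4 were at sites held by no group. In the RefSeq promoter table (GRCm38, 250 bases before to 50 after a start), 6 of the 8 genes were matched, with 10 promoters. TGTTTAC was present in 1 of them, at Foxa1, against 3.65% of 32851 promoters, and the other 3 motifs in none.

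Genes with a binding profile like that of Foxo1 were sought over the highest percentile within 50 kb in the 6 GR lists and the FOXO1 list. The nearest by Euclidean distance were Pacsin2 (9.89 percentile units), 2310007B03Rik and Agxt (10.5 each), of which the last 2 share their sites. The values of Pacsin2 were 96.5 and 45.9 (ctrl.), 82.7 and 88.7 (cal. res.), 84.7 and 90.1 (CORT) and 93.0 for FOXO1.

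Of 36 other forkhead genes, 28 had at least 1 GR site within 50 kb and 8 had none. Sites were held by ctrl. at 12 of them, by cal. res. at 14, by CORT at 22 and by all 3 groups at 11, and 14 had a FOXO1 region. Together they had 106 sites, of which ctrl. held 22, cal. res. 29 and CORT 52. The most shared sites were near Foxr1 (13 sites, 5 held by all groups), Foxh1 (15 and 4), Foxq1 (11 and 2) and Foxj2 (5 and 1). Foxj2 was tied at 1 shared site with Foxk2, Foxd2, Foxe1, Foxn2, Foxn3, Foxj3 and Foxo6, and is named because it had the most sites among them. A site near one of these genes may belong to a neighbour, since only distance was used.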

How the data were processed

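GR ChIP-seq was available as 6 peak lists (2 per group) and FOXO1 ChIP-seq as 1 list merged from 2 cal. res. libraries. Per the labels and the study's methods, the authors aligned reads to mm10 with BWA, removed duplicates with Picard, called peaks with MACS2 per GR library and on the merged FOXO1 libraries, and removed blacklisted regions. The deposited columns are fold enrichment (a ratio over local background) and -log10 p-values and q-values (the largest q was 0.0994 to 0.0998 for GR and 9.84e-06 for FOXO1). Rows with the same start and end were reduced to the highest summit, and regions on chromosomes 1 to 19, X and Y were merged where they shared 1 bp. Gene starts came from GENCODE M21, and sequences from the GRCm38 reference. On chromosomes 1 to 19, X and Y no GR site or FOXO1 region ran past the end of the reference chromosome. Other contigs were not checked. Counts have no test. Normal scores of percentiles at sites with peaks in all 6 libraries were fitted with limma 3.58.1 (R 4.3.3; all groups, Benjamini-Hochberg over all sites, threshold 0.05), tested on simulated data. Other steps used Python 3.11.15, pandas 2.3.3 and SciPy 1.17.1.

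Named were all members, every site held by a group, the 4 other forkhead genes with most shared sites and the 3 genes most like Foxo1. The members, lists and tests were chosen with earlier results of these data known. Alternatives were the q limit, equal regions, either library, window, gene start, summit distance, FOXO1 overlap and strength, p-value ranks, quantile normalization, replicate and library-name terms, motif window and each library left out. Equal-region comparisons of percentiles and a crossed block were added after seeing the data. The sequence chosen by the same rule at 1 further gene is not reported here.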

Additional observations from a re-analysis of the deposited data

How the results depend on the processing

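Across 106 alternative values, 88 stayed within 1.5 times the main count and 18 did not. Most of the 88 were limma call counts of 0 beside a main count of 0. In simulated data that fit recovered 0% of shifts of 2 units, so such values say little about stability. The forkhead sites held by ctrl. and CORT (25 and 42) were 13 and 27 at q of at most 1e-05, 16 and 18 with equal regions, and 57 and 68 when either library sufficed. With single libraries left out, ctrl. ranged from 25 to 58 (without ctrl. 2), cal. res. from 29 to 31 and CORT from 53 to 63, and FOXO1-overlapping sites held by cal. res. from 16 to 17. Windows of 100 bp gave 1 GRE, 3 AGAACA and 4 TTCNNNGAA. The limma calls over all sites were 5 in CORT against ctrl. with quantile-normalized fold enrichment and 250 in cal. res. against ctrl. with the library-name style as a covariate (240 higher). Leaving out 1 library gave 0 to 251 calls in cal. res. against ctrl., 0 to 1343 in CORT against ctrl. and 0 to 378 in cal. res. against CORT, the highest each time without ctrl. 1. In cal. res. against ctrl., the fit with the library-name style and the fit without ctrl. 1 both compare cal. res. with ctrl. 2 alone. They are therefore 1 dependence seen 2 times and not separate results. The cause of the other changes was not tested. The only forkhead site called under any alternative was the Foxo3 first-exon site, in CORT against ctrl. without ctrl. 1.

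The replicate numbers share no stated animal or batch. Replicate differences correlated across the 8095 sites at -0.0864 for cal. res. and ctrl., -0.115 for CORT and ctrl. and 0.0934 for cal. res. and CORT. The fit with the replicate block called 0 sites in each contrast, and with the 2 ctrl. numbers crossed it called 1 in cal. res. against ctrl., 0 in CORT against ctrl. and 46 in cal. res. against CORT, none at a forkhead gene.

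Peak lists carry no read counts, so depth differences could not be removed, and absence from a list is not absence of binding.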
